A study of Homo sapiens with 12 samples.

Results

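The comparison set 3 CA1 libraries (MCFCA1, the line that the series design calls an invasive cancer) against 3 NeoT libraries (MCFNeoT, called benign hyperplasia), 6 of the 12 libraries of the series. Members were taken by label: every library labelled CA1 or NeoT, and every one of the 29744 gene rows of the deposited table. The choice of these members was made with earlier results of these data known. Both are human mammary lines derived from MCF10A, the non-tumorigenic parent line, after a mutant HRAS was introduced, and the design text counts all 4 lines as triple-negative breast cells. As known for this lineage, NeoT carries that HRAS, and CA1 was obtained further along the same lineage after growth of derived cells as xenografts in mice, so the mutant HRAS is common to the 2 groups compared. The labels give no drug treatment, and the culture media and passage are not given in the sources used here. Each group is 1 cell line with 3 biological replicates, so the p-values measure the spread between cultures of that line and cannot tell the line's malignancy apart from any other property of it.

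Epithelial cells hold together through E-cadherin junctions, tight junctions and desmosomes and rest on keratin filaments. In an epithelial-mesenchymal transition, transcription factors of the ZEB, SNAI and TWIST families lower those genes while vimentin, fibronectin and other matrix genes go up, and epithelial regulators such as GRHL2, OVOL and ESRP proteins act in the opposite direction. The lineage from MCF10A to its invasive derivatives is widely used to study how RAS-driven breast cells change towards malignancy.

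CA1 libraries held 18465135 to 25293996 counts and NeoT libraries 18032404 to 24903105. Between 12663 and 13138 genes had at least 10 counts. Values are CPM (counts scaled to a common library size, with TMM factors over the 6 libraries), given as replicates 1, 2 and 3 in order or as mean ± SD (n = 3), and are not corrected for gene length, so they compare lines and not genes. Where a line had 0 counts, its level could still be up to 0.0436 CPM in CA1 or 0.045 in NeoT, which 3 counts over its libraries would give. The folds printed for those genes are lower bounds, and bounds and intervals allow for counting error alone. Pearson's r of log2 CPM across genes was 0.9877 to 0.9899 between CA1 replicates, 0.9771 to 0.9888 between NeoT replicates and 0.7583 to 0.7668 between the lines. NeoT replicate 3 had the 2 lowest values within a line, and the biological coefficient of variation was 15.6% in NeoT and 6.37% in CA1. The cytoplasmic rRNA rows took 0.954% to 1.36% of counts in CA1 and 1.48% to 2.18% in NeoT. A fit without those rows called 8923 genes, against 8924 with them. MCF10A is a breast epithelial line. Of markers of breast epithelium, CDH1 and EPCAM were high in CA1 and stood at only 0.654 ± 0.424 and 6.86 ± 0.726 CPM in NeoT. KRT5 was present in both lines and higher in CA1, and KRT14 was low in both. The simple epithelial keratins KRT7, KRT8 and KRT18 were present in both.

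The lines differed in most of their expressed genes. Of 13500 genes tested, 8924 (66.1%) were called by edgeR at an adjusted p under 0.05, 4456 higher in CA1 (33%) and 4468 lower (33.1%). At least 2-fold changes were called for 4246 genes (31.5%), 2282 higher (16.9%) and 1964 lower (14.5%), and 2151 genes differed at least 4-fold (1222 higher, 929 lower). At 16-fold or more there were 989 genes, 590 higher and 399 lower. The replicates of the 2 lines did not overlap for 9520 genes (70.5%). With so many genes called, a list whose called share lies near 66.1% is no different from the background. The counts of each list are read against these shares. The gene lists were chosen with earlier results of these data known, so their counts are descriptions and not independent evidence. The median log2 fold change over all genes tested was -0.014.

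**Figure D1:**
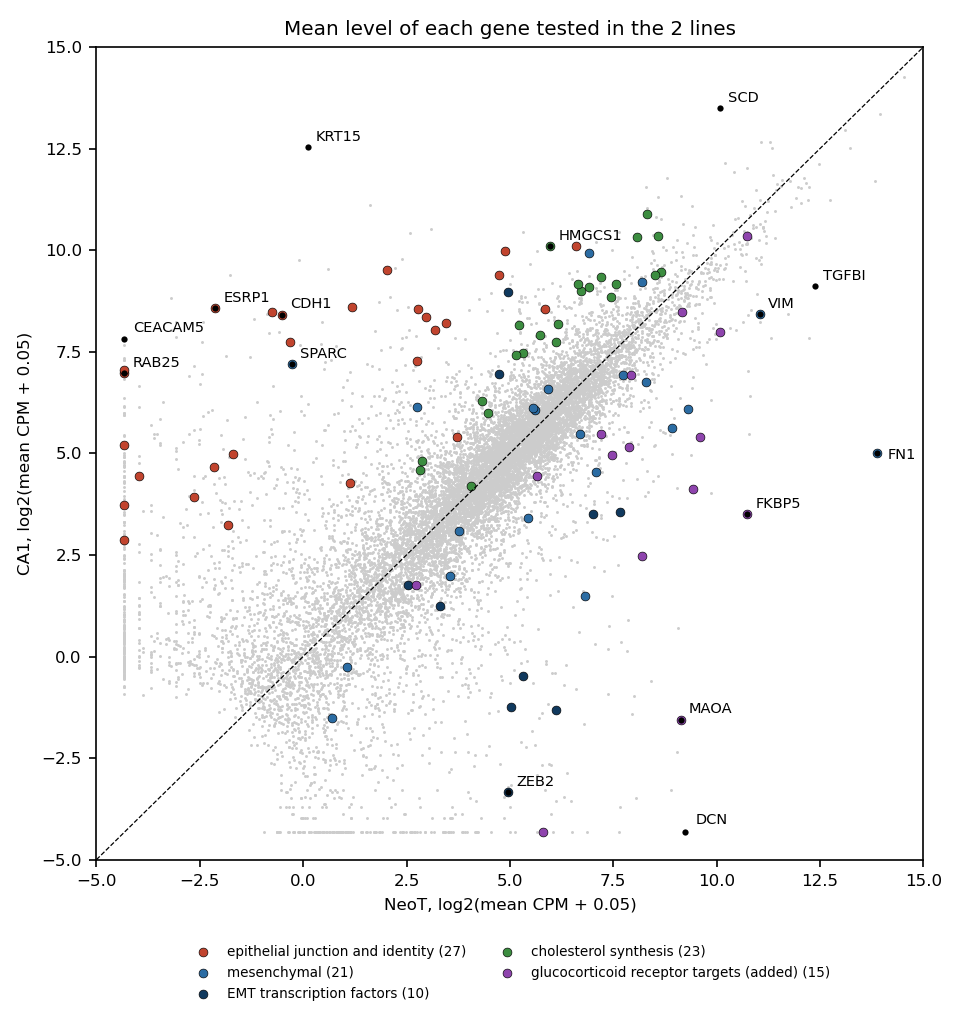
Mean level of each of 13500 tested genes in NeoT (x axis) and CA1 (y axis), as log2 of CPM plus 0.05, with the line of equal level dashed. The members of 5 lists are coloured, with the number tested in brackets; all 27 epithelial junction genes lie above the line, and FN1, DCN, FKBP5 and MAOA lie far below it.

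HRAS (chromosome 11, 532242 to 535576, GRCh38), the oncogene shared by the lines, had similar levels in them. It stood at 272, 288 and 294 CPM in CA1 and 248, 229 and 205 in NeoT. The 3 CA1 libraries lay above all 3 NeoT libraries, and the difference was small: 1.25-fold higher, log2 fold change 0.32 ± 0.08 SE, adjusted p = 0.0054. Mutant and normal transcripts are counted together, so the level does not tell them apart. On a scale set over all 12 libraries, HRAS stood at 64.5 ± 4.59 CPM in the parent line MCF10A. NeoT stood at 239 ± 21.7 and CA1 at 302 ± 11.9 on that scale, both above the parent.

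The epithelial programme was the clearest difference. CDH1 (E-cadherin, the core protein of adherens junctions; chromosome 16, 68737292 to 68835537) stood at 350.2, 328 and 343 CPM in CA1 and 0.622, 0.247 and 1.09 in NeoT. All 3 NeoT libraries were near the floor and all 3 CA1 libraries were high, a 546-fold difference (log2 9.09 ± 0.22 SE, adjusted p = 1.86e-10). The surface adhesion protein gene EPCAM (chromosome 2, 47369311 to 47387020) stood at 359, 374 and 384 CPM in CA1 and 6.09, 6.96 and 7.54 in NeoT, 54.4-fold higher in CA1 (adjusted p = 2.56e-11). The tight junction gene CLDN1 stood at 369.9, 349.9 and 354 CPM in CA1 and 0.456, 0.906 and 0.273 in NeoT (625-fold higher, adjusted p = 7.08e-11). In none of these genes did the lines overlap, which was also so for 70.5% of all genes tested. Of 28 genes on the epithelial junction and identity list, 27 were tested, and 27 of 27 were called higher in CA1 and 0 lower, each by at least 2-fold, against 33% and 16.9% of all genes. The untested member, CLDN3, had 6 counts over the CA1 libraries and 0 in NeoT. The median log2 fold change of the 27 was 6.93, also with genes at 0 in NeoT placed at their bound.

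Regulators of epithelial identity were among the genes that NeoT lacked. GRHL2, a grainyhead transcription factor of epithelia, had 0 counts in NeoT and 34.4, 40.4 and 36.2 CPM in CA1, at least 828-fold higher. GRHL2 also had 0 counts in the parent line MCF10A. OVOL1, another repressor of mesenchymal genes, had 0 counts in NeoT and 7.27 ± 0.467 CPM in CA1 (at least 161-fold). The splicing regulator gene ESRP1 stood at 374, 379 and 385 CPM in CA1 and 0.373, 0.165 and 0 in NeoT (1896-fold higher, adjusted p = 1.01e-10), while its relative ESRP2 differed by only 3.23-fold, at 42.4 ± 1.94 CPM in CA1 and 13.1 ± 1.75 in NeoT. RAB25, a small GTPase of epithelial vesicle recycling, AP1M2, an adaptor for basolateral sorting, and the junction protein gene CGN (cingulin) were also at 0 in NeoT. RAB25 stood at 131, 124 and 121 CPM in CA1 (at least 2775-fold higher), AP1M2 at 127, 134 and 134 (at least 2937-fold) and CGN at 12.6, 15.3 and 11.4 (at least 292-fold). CRB3, a polarity protein gene, had 21.6 ± 2.51 CPM in CA1 and 1 count over the 3 NeoT libraries, a CA1 to NeoT CPM ratio of 1452 (95% counting interval 260.2 to 57379). Membrane serine proteases and their inhibitors went the same way. PRSS8 (prostasin) was 281-fold higher at 213 ± 12.1 CPM, ST14 (matriptase) 177-fold at 390.0 ± 15.6, and SPINT1 and SPINT2, which inhibit them, 25.05-fold and 11.2-fold.

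E-boxes are the short sites that ZEB and SNAI proteins are known to bind, and 4 promoters are shown because these epithelial genes differed strongly and their proximal promoters hold the letters CACCTG on either strand. Capitals mark CACCTG and its reverse complement CAGGTG, which cannot overlap each other. Each sequence is the 250 bases before the annotated start on the gene's strand, from RefSeq on GRCh38.p14: CRB3 at chr19:6464021-6464270 (plus strand), RAB25 at chr1:156060910-156061159 (plus), AP1M2 at chr19:10587313-10587562 (minus) and OCLN at chr5:69492297-69492546 (plus).
CRB3: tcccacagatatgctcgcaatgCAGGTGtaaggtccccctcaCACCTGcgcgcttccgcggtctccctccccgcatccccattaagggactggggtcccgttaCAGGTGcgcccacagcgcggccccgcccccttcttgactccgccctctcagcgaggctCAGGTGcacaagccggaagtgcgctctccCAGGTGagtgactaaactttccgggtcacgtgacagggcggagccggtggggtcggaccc
RAB25: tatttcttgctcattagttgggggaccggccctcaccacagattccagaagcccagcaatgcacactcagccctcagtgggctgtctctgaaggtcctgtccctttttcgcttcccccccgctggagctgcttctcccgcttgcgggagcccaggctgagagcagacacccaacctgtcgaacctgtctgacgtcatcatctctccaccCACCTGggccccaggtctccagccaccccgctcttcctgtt
AP1M2: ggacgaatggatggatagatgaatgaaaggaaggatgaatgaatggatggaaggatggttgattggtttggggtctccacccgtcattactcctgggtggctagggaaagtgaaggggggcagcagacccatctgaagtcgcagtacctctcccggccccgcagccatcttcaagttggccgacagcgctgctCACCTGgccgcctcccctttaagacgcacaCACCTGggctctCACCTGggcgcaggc
OCLN: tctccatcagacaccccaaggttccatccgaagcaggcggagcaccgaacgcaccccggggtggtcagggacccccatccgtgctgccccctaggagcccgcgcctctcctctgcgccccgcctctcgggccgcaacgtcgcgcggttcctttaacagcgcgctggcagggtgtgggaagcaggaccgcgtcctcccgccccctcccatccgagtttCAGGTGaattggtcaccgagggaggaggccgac
CRB3 had 5 matches, starting 60, 89, 147, 208 and 228 bases before the start. AP1M2 had 3 (15, 27 and 57 bases before), RAB25 had 1 (41 bases) and OCLN had 1 (33 bases). OCLN encodes occludin, a tight junction protein, and stood at 31.7 ± 0.641 CPM in CA1 and 0.256 ± 0.315 in NeoT (116-fold higher). Of 14 promoters of the list with a sequence, 4 (28.6%) held a match, against 4781 of 27305 promoters in all (17.5%). A match describes the letters in this window and says nothing of binding.

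Desmosome genes, which anchor keratin filaments between cells, were also higher in CA1, with smaller fold changes. All 9 tested members of 10 were called higher in CA1, 8 of them at least 2-fold, with a median log2 fold change of 1.73. The cadherin gene DSG3 stood at 196, 188 and 185 CPM in CA1 and 4.6, 4.12 and 6.61 in NeoT (37.7-fold higher) and DSC2 at 100.3 ± 3.07 CPM in CA1 and 4.75 ± 0.318 in NeoT (21.2-fold). DSP (desmoplakin), DSG2 and PKP2 were present in both lines: DSP at 438 ± 23.2 CPM in CA1 and 106 ± 11.2 in NeoT (4.12-fold), DSG2 at 455 ± 13.9 CPM in CA1 and 262 ± 26.97 in NeoT (1.74-fold). PKP1 was not tested, with 2 counts over CA1 and 0 over NeoT.

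Most keratins named here, basal and simple, were higher in CA1, while KRT14 was not called and KRT6A was lower. KRT15, a keratin of basal progenitor cells (chromosome 17, 41513745 to 41518890), stood at 5661, 6063 and 5981 CPM in CA1 and 1.16, 0.988 and 0.929 in NeoT, 5683-fold higher in CA1 (adjusted p = 6.40e-13), with no overlap. The simple epithelial keratins KRT8 and KRT18 were present in both lines and higher in CA1: KRT8 stood at 3256, 3588 and 3612 CPM in CA1 and 484, 466 and 397 in NeoT (7.76-fold, adjusted p = 7.01e-10). KRT18 stood at 3004 ± 144 CPM in CA1 and 312 ± 14.9 in NeoT (9.62-fold), and KRT7 at 5897 ± 225 CPM in CA1 and 2599.7 ± 86.1 in NeoT (2.27-fold). The basal keratin KRT5 stood at 241, 273 and 251 CPM in CA1 and 40.4, 39.97 and 34.03 in NeoT (6.68-fold higher), whereas its partner KRT14 was low in both lines, at 3.13 ± 0.198 CPM in CA1 and 2.45 ± 0.753 in NeoT, and was not called (log2 0.35 ± 0.28 SE, adjusted p = 0.29). KRT17 was 169-fold higher and the stress keratin KRT16 8.29-fold. KRT6B stood at 665 ± 21.6 CPM in CA1 and 0.243 ± 0.148 in NeoT (2709-fold higher), and KRT6A went the other way, at 11.6 ± 0.457 CPM in CA1 and 70.3 ± 1.36 in NeoT (6.03-fold lower). KRT6A, KRT6B and KRT6C share most of their sequence, so reads could be split between them and their single values are uncertain.

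The wider basal list followed KRT15. Of 20 genes tested, 16 were called higher and 2 lower, with a median of 2.78. TP63, the master regulator of basal epithelium, was at 0 in all NeoT libraries and at 23.6, 25.3 and 27.8 CPM in CA1, at least 573-fold higher. COL17A1, a hemidesmosomal collagen, stood at 853, 886 and 848 CPM in CA1 and 0.58, 0.906 and 1.15 in NeoT (999-fold higher), the basal marker gene TRIM29 at 462 ± 17.7 CPM in CA1 and 4.23 ± 1.36 in NeoT (107-fold), and the laminin-332 chain genes LAMA3 and LAMB3 were 35.04-fold and 2.82-fold higher. Its receptor subunit gene ITGB4 was 1.12-fold lower, at 7897 ± 202 CPM in CA1 and 8875 ± 159 in NeoT. The 2 lower genes of the list became 1 without CA1 replicate 1 or CA1 replicate 3.

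On the luminal list, 15 of 22 genes were tested and 5 had no count in the 6 libraries. Of the 15, 13 were called higher and 2 lower, with a median of 3.91. ELF3, an epithelial ETS factor, stood at 194, 216 and 186 CPM in CA1 and 1.66, 2.06 and 1.31 in NeoT (116-fold higher). FOXA1, a pioneer factor of luminal cells, stood at 51.2 ± 1.61 CPM in CA1 and 2.22 ± 0.459 in NeoT (22.7-fold) and GATA3 at 52.4 ± 1.16 CPM in CA1 and 20.8 ± 4.12 in NeoT (2.52-fold). The surface marker CD24 stood at 71.8, 75.6 and 75.8 CPM in CA1 and 5.39, 3.91 and 5.63 in NeoT (15.03-fold higher), and CD44, a marker of mesenchymal and stem-like breast cells, was also higher, by 1.4-fold, at 1284 ± 22.5 CPM in CA1 and 915 ± 20.1 in NeoT. MUC1, an apical mucin, stood against the rest at 0.505 ± 0.262 CPM in CA1 and 11.2 ± 0.604 in NeoT (22.9-fold lower). The receptor genes that define triple-negative cells were checked: PGR had no count, and ESR1 had 0 counts in NeoT and 1.13 ± 0.265 CPM in CA1 (at least 25.2-fold higher). ERBB2 was present in both, at 190.0 ± 10.7 CPM in CA1 and 55.6 ± 4.26 in NeoT, 3.42-fold higher in CA1 (adjusted p = 2.32e-08).

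Squamous differentiation genes, which build the cornified layers of skin, were mostly higher in CA1. Of 25, 14 were tested, 10 higher, 3 lower and 1 not called, with a median of 7.44 (6.26 with bounds). The kallikrein protease genes KLK5 and KLK6 had 0 counts in NeoT, with KLK5 at 201, 207 and 203 CPM in CA1 (at least 4536-fold higher) and KLK6 at 40.8, 41.7 and 45.4 (at least 952-fold). The small proline-rich genes SPRR1A (at least 485-fold), SPRR1B (at least 178-fold) and SPRR3 (at least 32.7-fold), the keratin KRT13 (at least 209-fold) and KLK10 (at least 154-fold) were also at 0 in NeoT. On a scale set over all 12 libraries, KLK10 stood at 147 ± 10.9 CPM in the parent line MCF10A and 7.28 ± 0.763 in CA1. SPRR1B stood at 81.8 ± 6.43 in the parent and 8.48 ± 1.49 in CA1. CA1 thus lay below the parent for KLK10 and SPRR1B, and above it for KLK5, KLK6, SPRR1A, SPRR3 and KRT13. The calcium-binding genes S100A8 and S100A9 were lower in CA1. S100A9 stood at 10.7 ± 2.39 CPM in CA1 and 33.5 ± 11.3 in NeoT (3.13-fold lower), and S100A8 had 1 count over CA1 against 2.18 ± 1.12 CPM in NeoT, a NeoT to CA1 CPM ratio of 157 (95% counting interval 27.7 to 6227).

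**Figure D2:**
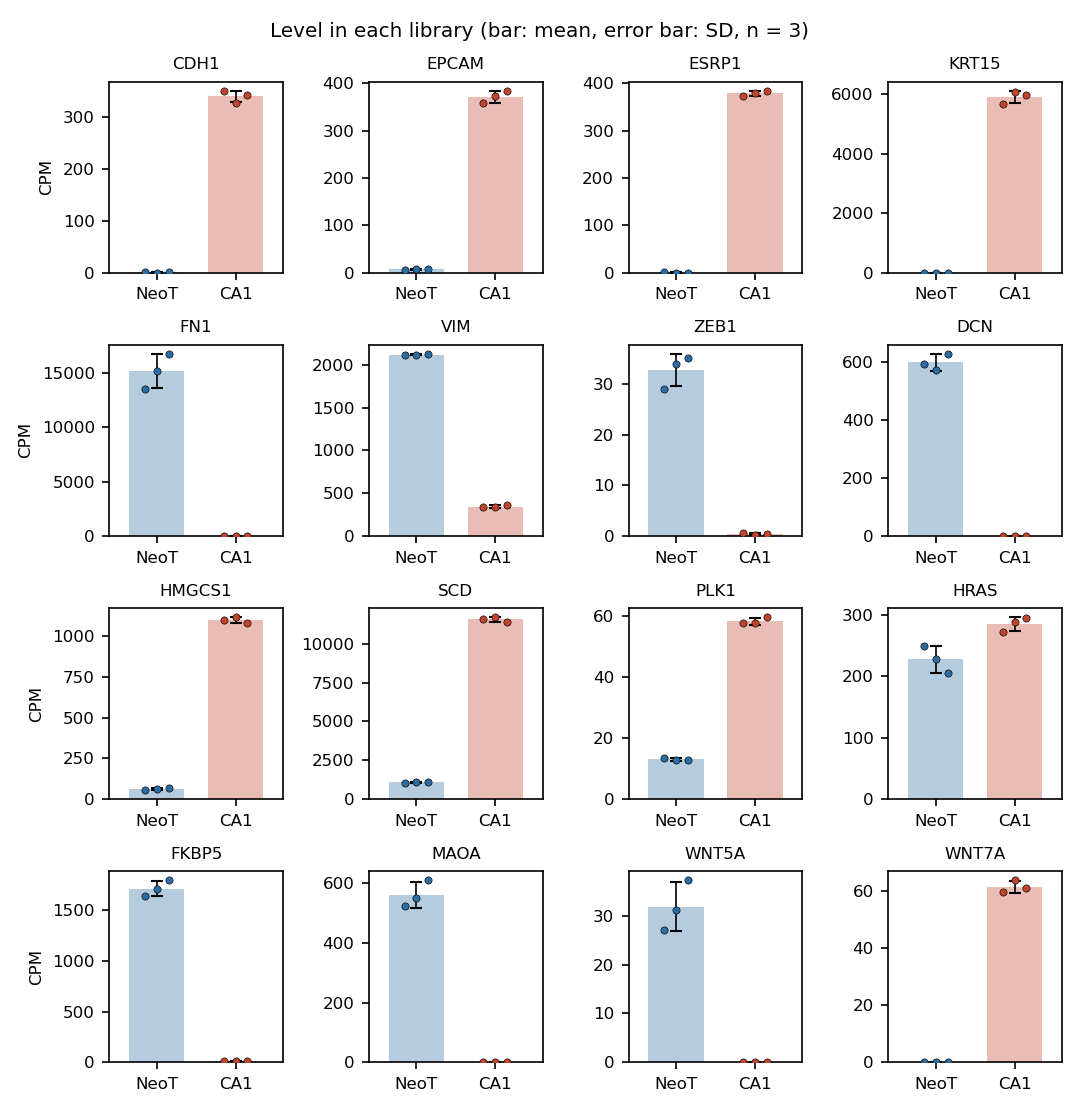
Level in CPM of 16 genes in each of the 3 NeoT (blue) and 3 CA1 (red) libraries; bars give the mean, error bars the SD and points the libraries. CDH1, EPCAM, ESRP1 and KRT15 are high only on the CA1 side, FN1, ZEB1, DCN and FKBP5 only on the NeoT side, and HRAS is high in both lines.

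Transcription factors of the epithelial-mesenchymal transition were lower in CA1. ZEB1, which represses CDH1 (chromosome 10, 31318417 to 31529804), stood at 0.477, 0.163 and 0.474 CPM in CA1 and 29.1, 34.00 and 35.1 in NeoT, 88.4-fold lower (log2 -6.47 ± 0.24 SE, adjusted p = 3.20e-09). ZEB2 stood at 0.106, 0.0407 and 0 CPM in CA1 and 28.7, 30.1 and 34.2 in NeoT, a NeoT to CA1 CPM ratio of 703 (95% counting interval 240.4 to 3414), and TWIST1 at 9.64, 11.8 and 13.7 CPM in CA1 and 211, 222 and 172 in NeoT (17.2-fold lower). In all 3 the lines lay far apart. SNAI2 stood at 11.3 ± 0.812 CPM in CA1 and 128 ± 11.3 in NeoT (11.3-fold lower), SNAI1 at 2.33 ± 0.702 CPM in CA1 and 9.85 ± 1.31 in NeoT (4.25-fold), TWIST2 at 0.667 ± 0.0574 CPM in CA1 and 40.1 ± 3.19 in NeoT (59.6-fold) and FOXC2 at 0.354 ± 0.258 CPM in CA1 and 69.3 ± 17.9 in NeoT (189-fold). Of 12 genes listed, 10 were tested: 8 were called lower, against 33.1% of all genes, and 2 higher, with a median of -3.8. The 2 higher ones were SOX9 (16.3-fold) and FOXC1 (4.64-fold). MIR205HG, the host transcript of a microRNA known to target ZEB factors, had 0 counts in NeoT and 151, 165 and 171 CPM in CA1 (at least 3631-fold higher), and was chosen after its values were seen. The microRNA itself was not measured.

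Mesenchymal genes moved less uniformly. FN1 (fibronectin; chromosome 2, 215360865 to 215436068) was the extreme, at 35.3, 29.2 and 31.5 CPM in CA1 and 13544, 15188 and 16726 in NeoT, 474-fold lower in CA1 (adjusted p = 1.19e-11). VIM (vimentin, the filament protein of mesenchymal cells) stood at 334, 337 and 359 CPM in CA1 and 2111, 2121 and 2128 in NeoT, 6.17-fold lower, and the neural cadherin gene CDH2 at 10.6 ± 0.968 CPM in CA1 and 43.6 ± 9.22 in NeoT (4.11-fold). Vimentin thus stayed well above the floor in CA1. The elastic fibre gene FBN1 was 40.4-fold lower and the collagen cross-linker LOX 9.4-fold. Several genes of the list were higher in CA1 instead: SPARC, a collagen-binding matrix protein, at 147, 148 and 143 CPM in CA1 and 0.539, 0.906 and 0.874 in NeoT (189-fold higher), NT5E, an ectonucleotidase, at 596 ± 14.4 CPM in CA1 and 292 ± 30.6 in NeoT (2.04-fold) and THBS1 (thrombospondin) at 977 ± 15.6 CPM in CA1 and 121 ± 8.58 in NeoT (8.09-fold). In all, 14 of 21 tested members were lower (66.7%) and 7 higher (33.3%), against 33.1% and 33% of all genes. Their median was -1.38.

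Matrix and adhesion genes also went both ways. Collagen VI chains were lower in CA1, COL6A1 at 7.22 ± 1.69 CPM in CA1 and 163 ± 18.03 in NeoT (22.4-fold) and COL6A3 at 4.71 ± 0.187 CPM in CA1 and 196 ± 11.7 in NeoT (41.5-fold), while the membrane collagen COL13A1 (11.1-fold), the fibril-associated collagen COL16A1 (26.3-fold) and the basement membrane collagen COL18A1 (25.8-fold) were higher. Of 15 collagens tested, 5 were higher and 8 lower, against 33% and 33.1% of all genes. Among integrins, the fibronectin receptor subunit gene ITGA5 stood at 83.5, 86.4 and 83.3 CPM in CA1 and 1812, 1859.7 and 1745 in NeoT (21.4-fold lower, adjusted p = 1.62e-11). ITGB6, an epithelial subunit that activates TGF-beta, stood at 319, 308 and 316 CPM in CA1 and 0.124, 0.494 and 0.546 in NeoT (824-fold higher). The collagen receptor ITGA2 was 9.91-fold higher and the laminin receptor ITGA6 7.05-fold, and ITGB2, a subunit best known from leukocytes, 393-fold at 60.9 ± 1.15 CPM. In all, 6 of 14 integrins were higher (42.9%) and 5 lower (35.7%), near the shares of all genes. The 5 lower became 3 without CA1 replicate 1 or CA1 replicate 3.

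Plasminogen activators were high in CA1, and metalloproteinase inhibitors split. PLAT (tissue plasminogen activator) stood at 732, 792 and 758 CPM in CA1 and 4.1, 4.82 and 4.92 in NeoT (165-fold higher) and PLAU (urokinase) at 444, 465 and 438 CPM in CA1 and 22.97, 17.3 and 17.1 in NeoT (23.4-fold). TIMP1 stood at 132, 132 and 130.1 CPM in CA1 and 1793, 1703 and 1660.4 in NeoT (13.1-fold lower) and TIMP2 was 2.56-fold lower, but TIMP3 was 3.51-fold higher. Among the metalloproteinases, MMP2 stood at 23.4 ± 2.31 CPM in CA1 and 136 ± 8.09 in NeoT (5.8-fold lower), and MMP14, at 260.4 ± 14.5 CPM in CA1 and 215 ± 35.7 in NeoT, was not called (adjusted p = 0.053). MMP1, a collagenase, stood at 4.05 ± 0.561 CPM in CA1 and 0.486 ± 0.154 in NeoT (8.19-fold higher), and MMP28 was also higher, by 1.96-fold. Of 20 proteases and inhibitors tested, 7 were higher (35%) and 11 lower (55%), against 33% and 33.1% of all genes.

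TGF-beta ligands, receptors and targets were mostly lower in CA1. TGFBI, a secreted target, stood at 554, 545 and 569 CPM in CA1 and 5105, 5086 and 5753 in NeoT (9.56-fold lower, adjusted p = 9.54e-11). The ligand gene TGFB1 stood at 18.9, 20.2 and 20.6 CPM in CA1 and 389, 377 and 289 in NeoT (17.7-fold lower), TGFB2 at 39.96 ± 0.588 CPM in CA1 and 148 ± 19.7 in NeoT (3.71-fold) and the receptor TGFBR2 at 82.4 ± 3.68 CPM in CA1 and 557 ± 32.01 in NeoT (6.76-fold). The groups did not overlap in any of them, as in 70.5% of all genes tested. The target ID3 was 7.88-fold lower and ID1 2.82-fold. The activin subunit gene INHBA (9.24-fold), its inhibitor FST (13.5-fold) and PMEPA1, a feedback inhibitor (6.91-fold), were higher. BMP7 had 0 counts in NeoT and 10.8, 11.6 and 12.7 CPM in CA1 (at least 263-fold higher). Of 21 tested, 13 were lower (61.9%) and 7 higher (33.3%), against 33.1% and 33% of all genes. Their median was -1.19.

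Feedback and output genes of the MAPK pathway, which RAS drives, did not move as a block: of 22 tested, 11 were higher, 9 lower and 2 not called. The ERK phosphatase gene DUSP4 stood at 1152, 1174 and 1124 CPM in CA1 and 1038, 1077 and 995 in NeoT and was not called (log2 0.15 ± 0.06 SE, adjusted p = 0.053), and DUSP6 was 1.57-fold lower, at 397 ± 7.07 CPM in CA1 and 621 ± 31.3 in NeoT. SPRY4, a RAS pathway inhibitor, stood at 38.7 ± 2.03 CPM in CA1 and 214 ± 6.21 in NeoT (5.52-fold lower) and SPRY1 at 19.7 ± 0.399 CPM in CA1 and 2.59 ± 0.738 in NeoT (7.56-fold higher). FOSL1, a transcription factor of the AP-1 family, was 2.55-fold higher and the receptor EPHA2 3.72-fold. MYC, a growth-promoting transcription factor, stood at 228, 229 and 224 CPM in CA1 and 1064, 1091 and 883 in NeoT, 4.46-fold lower in CA1 (adjusted p = 6.65e-09), and EGR1 was 6.26-fold lower. CCND1 (cyclin D1) was 1.61-fold lower, at 244 ± 9.42 CPM in CA1 and 393 ± 32.7 in NeoT.

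Receptors and ligands of the EGFR family were more often higher in CA1, in 7 of 12 tested (58.3%), with 4 lower (33.3%). Of all genes, 33% were higher and 33.1% lower. HBEGF, a ligand of EGFR, stood at 413, 426 and 435 CPM in CA1 and 3.57, 3.05 and 3.88 in NeoT (122-fold higher, adjusted p = 1.33e-11), and TGFA at 216 ± 8.8 CPM in CA1 and 47.9 ± 5.77 in NeoT (4.52-fold). ERBB3, the kinase-impaired receptor of neuregulins, stood at 44.9, 47.8 and 44.97 CPM in CA1 and 0.788, 0.864 and 0.765 in NeoT (56.4-fold higher), and its ligand gene NRG1 at 8.5 ± 1.59 CPM in CA1 and 0.93 ± 0.318 in NeoT (8.94-fold). EGFR itself differed by only 1.37-fold, at 130.1 ± 2.09 CPM in CA1 and 94.7 ± 12.8 in NeoT. The feedback inhibitor gene ERRFI1 stood at 255 ± 6.89 CPM in CA1 and 1089 ± 78.3 in NeoT (4.27-fold lower).

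Mitotic genes were higher in CA1, while replication genes other than PCNA were lower or not called. Of 30 mitosis genes, all tested, 28 were called higher in CA1 and 0 lower, against 33% and 33.1% of all genes, with a median of 1.05. The mitotic kinase gene PLK1 stood at 57.4, 57.4 and 59.5 CPM in CA1 and 13.5, 12.6 and 12.8 in NeoT (4.47-fold higher, adjusted p = 7.40e-09). CCNB1 (cyclin B1) stood at 70.6 ± 3.81 CPM in CA1 and 24.9 ± 2.0 in NeoT (2.84-fold), KIF2C, a kinesin of the spindle, at 37.2 ± 2.36 CPM in CA1 and 12.3 ± 1.37 in NeoT (3.02-fold) and MKI67 at 65.6 ± 8.53 CPM in CA1 and 31.5 ± 4.25 in NeoT (2.08-fold). TOP2A and TPX2 were not called (adjusted p = 0.13 and 0.056). Of 30 DNA replication genes, 1 was higher (PCNA, the polymerase clamp, 1.7-fold), 13 were lower and 16 were not called, with a median of -0.33. The helicase subunit gene MCM4 stood at 25.9 ± 1.47 CPM in CA1 and 52.7 ± 3.88 in NeoT (2.03-fold lower) and the polymerase subunit gene POLD1 at 18.7 ± 1.36 CPM in CA1 and 57.3 ± 3.82 in NeoT (3.06-fold). Among inhibitors of the cycle, CDKN1A (p21) stood at 191, 208 and 194 CPM in CA1 and 793, 771 and 622 in NeoT (3.69-fold lower), and CDKN2A and CDKN2B had no count in any of the 6 libraries. The p53 targets on that list were not lowered together: GDF15 stood at 4525 ± 161 CPM in CA1 and 1177 ± 305 in NeoT (3.84-fold higher), MDM2 at 364 ± 7.87 CPM in CA1 and 192 ± 34.4 in NeoT (1.89-fold) and PLK2 at 130.1 ± 6.26 CPM in CA1 and 22.03 ± 2.1 in NeoT (5.9-fold). In all, 13 of its 22 tested members were higher and 5 lower, the latter 3 without CA1 replicate 1 or 3 or NeoT replicate 1 or 2. The 1 replication gene called higher became 2 without NeoT replicate 3.

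**Figure D3:**
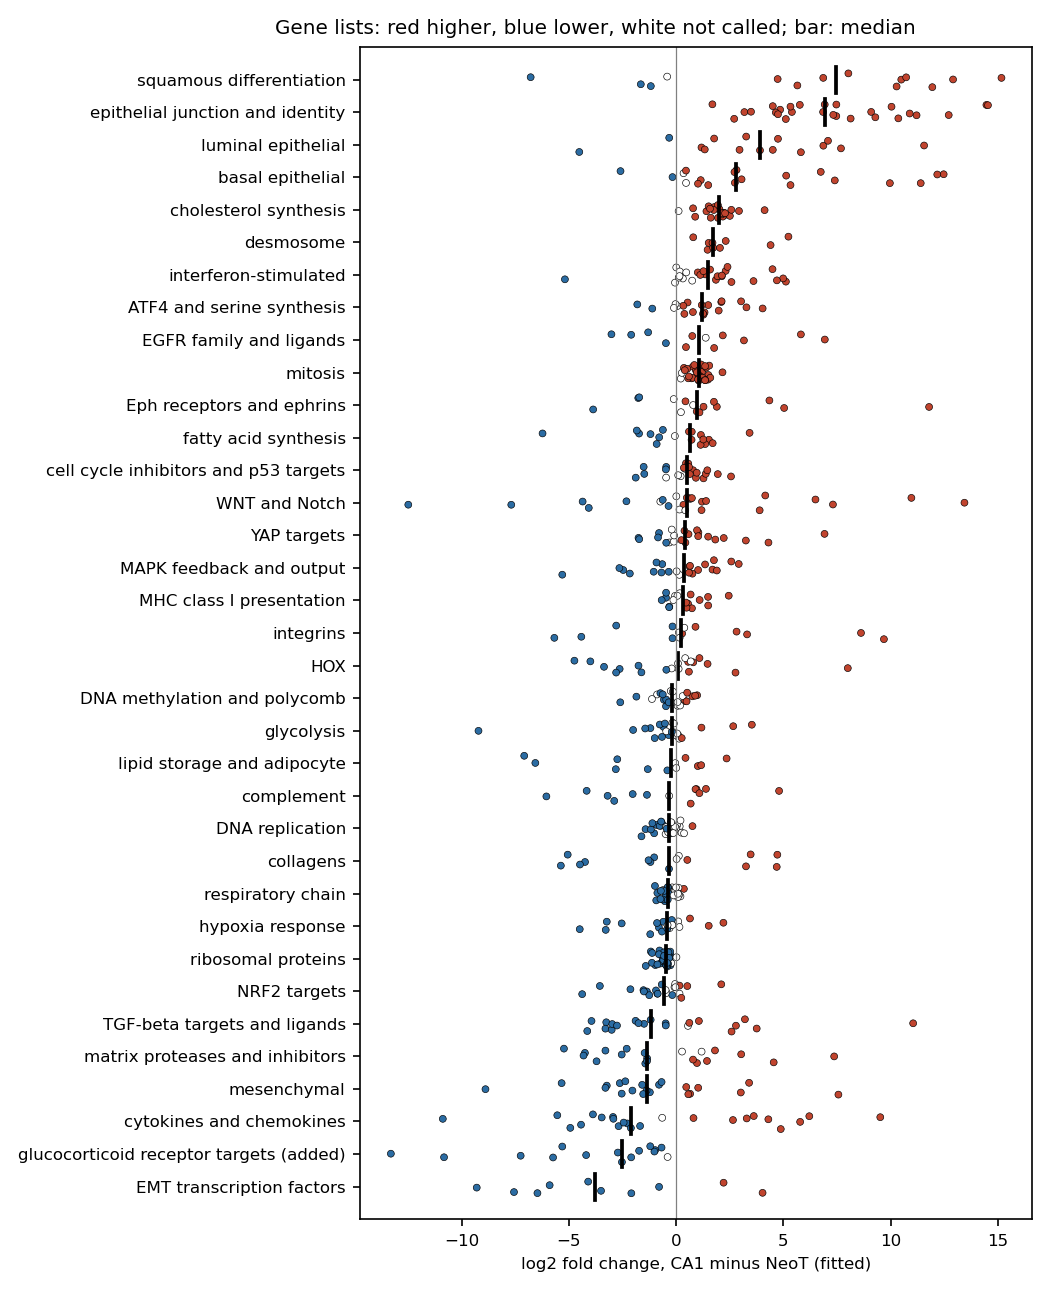
Fitted log2 fold change (CA1 minus NeoT, x axis) of each tested member of the 35 gene lists with at least 5 tested members (rows), ordered by their median (black bar); red members were called higher, blue lower and white not called. Epithelial junction and squamous genes lie farthest to the right, transition factors farthest to the left, and mitosis and cholesterol synthesis genes form tight groups to the right of 0.

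Interferon-stimulated genes were higher in CA1, with 1 exception among those called. Of 26 tested, 17 were higher, 1 lower and 8 not called, with a median of 1.47. The antiviral sensor gene OAS1 stood at 20.6, 23.9 and 22.8 CPM in CA1 and 0.373, 1.15 and 0.546 in NeoT (31.8-fold higher), SAMD9 at 40.98 ± 2.09 CPM in CA1 and 3.39 ± 0.656 in NeoT (12.2-fold) and the membrane tether BST2 at 165 ± 15.5 CPM in CA1 and 7.22 ± 2.65 in NeoT (22.5-fold). IFI44L went the other way, at 0.636, 1.14 and 1.5 CPM in CA1 and 39.8, 35.6 and 48.1 in NeoT (36.4-fold lower). Class I presentation genes split 9 higher (50%) to 5 lower (27.8%) of 18, or 3 lower without CA1 replicate 1. Of all genes, 33% were higher and 33.1% lower. B2M, the common light chain, stood at 860.1 ± 9.14 CPM in CA1 and 516 ± 16.8 in NeoT (1.67-fold higher).

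Cytokine genes went both ways. IL1B stood at 387, 373 and 379 CPM in CA1 and 7.71, 6.63 and 6.28 in NeoT (55.01-fold higher in CA1, adjusted p = 2.36e-11) and LIF, of the IL-6 family, at 365 ± 23.7 CPM in CA1 and 37.2 ± 4.39 in NeoT (9.79-fold). LCN2, an iron-sequestering acute phase protein, stood at 167, 160.1 and 179.5 CPM in CA1 and 0.249, 0.206 and 0.218 in NeoT (733-fold higher). CSF3, a growth factor for granulocytes, had 0 counts in CA1 and 11.4, 10.9 and 8.9 CPM in NeoT (at least 241-fold lower). The chemokine gene IL8 (CXCL8) stood at 23.2 ± 0.628 CPM in CA1 and 149 ± 8.4 in NeoT (6.41-fold lower), and CXCL1, CXCL2 and CXCL3 were 4.31-fold, 7.6-fold and 14.7-fold lower, while CXCL16 was 19.7-fold higher. The acute phase genes SAA1 (46.5-fold) and SAA2 (30.5-fold), close paralogs, were lower. Of 23 tested, 9 were higher (39.1%) and 13 lower (56.5%), against 33% and 33.1% of all genes. Complement genes split evenly, 6 higher and 6 lower of 13, with C3, the central component, at 999 ± 15.8 CPM in CA1 and 517 ± 3.35 in NeoT (1.93-fold higher).

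Cholesterol synthesis was higher in CA1 nearly throughout the pathway. Of 23 tested genes, 22 were called higher, 20 of them at least 2-fold, and 0 lower, with a median of 2.02. HMGCS1, at the entry of the pathway (chromosome 5, 43287470 to 43313412), stood at 1102, 1116 and 1080.2 CPM in CA1 and 58.4, 61.4 and 69.4 in NeoT (17.4-fold higher, adjusted p = 6.93e-11). FDFT1, which makes squalene, stood at 1886, 1895 and 1948 CPM in CA1 and 322, 303 and 337 in NeoT (5.95-fold). The groups were widely separated in both. MVD (7.62-fold), FDPS (5.68-fold) and SQLE (4.58-fold) followed, and PMVK was the tested member not called (adjusted p = 0.55). The controlling factor gene SREBF2 differed by 1.85-fold.

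Fatty acid genes were led by SCD, the desaturase that makes monounsaturated fatty acids. It stood at 11569.5, 11713 and 11413 CPM in CA1 and 1025, 1091 and 1115 in NeoT, 10.7-fold higher in CA1 (adjusted p = 3.40e-11). ACLY, which supplies acetyl-CoA, was 2.88-fold higher, SREBF1 2.4-fold, ELOVL6 3.26-fold and FASN 1.51-fold, while FADS1 (2.29-fold), ACSL4 (3.31-fold) and ACSL5 (3.57-fold) were lower. In all, 10 of 18 were higher (55.6%) and 7 lower (38.9%), against 33% and 33.1% of all genes. Lipid storage genes split. The fatty acid transporter CD36 stood at 0.636, 0.774 and 0.711 CPM in CA1 and 61.98, 69.7 and 71.9 in NeoT (94.6-fold lower), the droplet gene CIDEC at 0.168 ± 0.0922 CPM in CA1 and 22.4 ± 3.97 in NeoT (135-fold) and DGAT2, which makes triglyceride, at 5.84 ± 0.729 CPM in CA1 and 39.1 ± 3.68 in NeoT (6.69-fold). PPARG, the adipogenic nuclear receptor, was 2.01-fold higher, at 91.7 ± 4.36 CPM in CA1 and 45.5 ± 4.21 in NeoT, and PLIN4 5.11-fold. Of 20 listed, 12 were tested, 4 higher and 6 lower, and ADIPOQ, which defines adipocytes, had no count in either line.

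Iron storage and metal-binding genes were lower in CA1. FTH1, the ferritin heavy chain, stood at 3349.9, 3286 and 3360.0 CPM in CA1 and 15689, 15927 and 12156 in NeoT (4.38-fold lower, adjusted p = 1.57e-08), and FTL, the light chain, at 229, 223 and 239 CPM in CA1 and 5173, 4901 and 4312 in NeoT (20.8-fold lower, adjusted p = 5.52e-11). The 2 genes have many processed pseudogenes that can share their reads. They stand on the list of NRF2 targets, of which 12 of 22 were lower and 4 higher. AKR1C1 (11.8-fold lower) and TXNRD1 (2.58-fold) were among the lower, and the cystine transporter SLC7A11 was 4.3-fold higher. The 4 rises fell to 2 with upper-quartile scaling, without CA1 replicate 3 or without NeoT replicate 2. Metallothioneins, small proteins that bind zinc and copper, were looked at after MT1E had appeared among the largest falls. All 4 of 10 that were tested were lower. MT2A stood at 329, 300.0 and 401 CPM in CA1 and 3476, 2992 and 3767 in NeoT (9.93-fold lower), MT1X at 17.3, 12.3 and 19.4 CPM in CA1 and 941, 783 and 1079.8 in NeoT (57.2-fold) and MT1E at 0.159, 0 and 0 CPM in CA1 and 464, 401 and 563 in NeoT, a NeoT to CA1 CPM ratio of 10731 (95% counting interval 3672 to 52038). They are close paralogs on chromosome 16 and can share reads.

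ATF4 targets and serine synthesis genes were more often higher: 15 of 20, with 2 lower and a median of 1.23. The amino acid transporter SLC7A5 stood at 671, 711 and 711 CPM in CA1 and 85.7, 89.4 and 81.3 in NeoT (8.16-fold higher) and PHGDH, the first enzyme of serine synthesis, at 417 ± 6.25 CPM in CA1 and 105 ± 9.75 in NeoT (3.96-fold). ATF4 itself was not called (adjusted p = 0.59), and CEBPB was 3.51-fold lower. Glucose transporter genes differed in opposite directions. SLC2A1 stood at 414, 448 and 424 CPM in CA1 and 38.1, 35.6 and 37.7 in NeoT (11.5-fold higher in CA1) and SLC2A3 at 0, 0.122 and 0 CPM in CA1 and 29.02, 31.5 and 26.9 in NeoT, a NeoT to CA1 CPM ratio of 673 (95% counting interval 229.8 to 3264). HK2 was 6.33-fold higher and HK1 2.3-fold lower. The glycolysis list as a whole had 4 of 23 higher (17.4%) and 11 lower (47.8%), with a median of -0.2. On the hypoxia list, 12 of 20 were lower (60%) and 3 higher (15%). Of all genes, 33% were higher and 33.1% lower. The peptide hormone gene ADM stood at 2.82 ± 0.613 CPM in CA1 and 62.8 ± 2.86 in NeoT (22.5-fold lower), and VEGFA at 297, 334 and 302 CPM in CA1 and 71.02, 69.3 and 62.00 in NeoT (4.61-fold higher).

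WNT ligands differed in both directions. WNT5A, a ligand of beta-catenin-independent signalling (chromosome 3, 55465715 to 55505263), had 0 counts in CA1 and 27.2, 31.1 and 37.2 CPM in NeoT (at least 718-fold lower). WNT7A (chromosome 3, 13816258 to 13880071) had 0 counts in NeoT and 59.7, 63.8 and 61.2 CPM in CA1 (at least 1373-fold higher), and WNT7B stood at 206, 211 and 206 CPM in CA1 and 1.12, 1.61 and 1.15 in NeoT (159-fold higher). The receptor-degrading ligase gene RNF43 was at 0 in NeoT (at least 245-fold higher in CA1), the WNT antagonist SFRP1 was 14.9-fold higher and DKK3 had 2 counts over CA1, a NeoT to CA1 CPM ratio of 247 (95% counting interval 67.9 to 2044). AXIN2, a common read-out of beta-catenin signalling, was below 1 CPM in both lines. NOTCH1 (2.31-fold) and the ligand JAG1 (2.63-fold) were higher in CA1, and the target HEY1 was 16.8-fold lower. Over the WNT and Notch list, 13 of 25 tested were higher (52%) and 7 lower (28%), against 33% and 33.1% of all genes.

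Among YAP targets, 13 of 22 were higher (59.1%) and 5 lower (22.7%), against 33% and 33.1% of all genes. Their median was 0.41. F3 (tissue factor) stood at 643, 653 and 677 CPM in CA1 and 34.4, 32.8 and 32.7 in NeoT (19.8-fold higher), and IGFBP3, which binds insulin-like growth factors, at 528 ± 10.6 CPM in CA1 and 55.5 ± 2.61 in NeoT (9.51-fold). CTGF, a matricellular protein gene and a much used YAP target, went the other way, at 17.8 ± 1.34 CPM in CA1 and 60.00 ± 2.36 in NeoT (3.37-fold lower). Eph receptors, which read ephrins on neighbouring cells, were higher in CA1 for EPHA1, at 0 in NeoT and 16.7, 21.8 and 20.3 CPM in CA1 (at least 442-fold), and for EPHB3 (32.8-fold). EPHB6 stood at 1.38 ± 0.227 CPM in CA1 and 20.1 ± 3.97 in NeoT (14.6-fold lower). In all, 9 of 15 were higher (60%) and 3 lower (20%), against 33% and 33.1% of all genes. HOX genes, which record body position, gave 7 higher (35%) and 8 lower (40%) of 20 tested, near the 33% and 33.1% of all genes. Of the 36 listed, 11 were at 0 in all 6 libraries. HOXA11 had 0 counts in NeoT (at least 32.02-fold higher in CA1, at 1.41 ± 0.414 CPM), HOXC8 was 10.3-fold lower and HOXB2 26.8-fold. Of 24 regulators of DNA methylation and polycomb, 6 were higher (25%), 8 lower (33.3%) and 10 not called, not far from those shares. At least 2-fold changes were called for 2, CBX2 (6.08-fold lower) and PHC2 (3.61-fold), against 31.5% of all genes.

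Ribosomal protein genes were slightly lower in CA1. Of 40, 37 were called lower and 0 higher, with a median of -0.48. Those called at least 2-fold lower numbered 4, among them RPL18 (2.19-fold) and RPS19 (2.17-fold), and all 4 lie on chromosome 19. The 6 listed genes on chromosome 19 had a median log2 fold change of -1.12, and the 34 on other chromosomes one of -0.44, a split made after the values were seen. Nuclear-encoded respiratory chain genes had 17 of 32 lower and 1 higher, none by 2-fold, with a median of -0.36. The 1 higher became 3 without NeoT replicate 1 and 2 without NeoT replicate 3.

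Genes known to be switched on by the glucocorticoid receptor stood far lower in CA1 than in NeoT. The culture media of the lines are not given in the sources used here. FKBP5, a chaperone that dampens that receptor (chromosome 6, 35573590 to 35728583), stood at 12.3, 9.82 and 11.8 CPM in CA1 and 1642, 1707 and 1796 in NeoT (152-fold lower, log2 -7.25 ± 0.11 SE, adjusted p = 1.33e-11). ZBTB16, a zinc finger factor, had 0 counts in CA1 and 54.7, 53.8 and 58.9 CPM in NeoT (at least 1273-fold lower), and TSC22D3, an anti-inflammatory target also known as GILZ, stood at 39.3, 43.7 and 42.95 CPM in CA1 and 814, 788 and 709 in NeoT (18.3-fold). CA1 lay below NeoT in every library. MAOA, which degrades monoamines, stood at 0.106, 0.57 and 0.197 CPM in CA1 and 524, 549.8 and 609 in NeoT (1808-fold lower), KLF9 at 5.25, 4.6 and 6.67 CPM in CA1 and 279, 314 and 292 in NeoT (53.3-fold) and the phosphatase gene DUSP1 at 16.7, 17.5 and 17.8 CPM in CA1 and 686, 692 and 685 in NeoT (39.6-fold). The clock gene PER1 was 6.58-fold lower and NFKBIA, the inhibitor of NF-kB, 5.76-fold. Of 18 such genes, 15 were tested, and 14 were lower, 0 higher and 1, DDIT4, not called (adjusted p = 0.052), with a median of -2.53. The list was put together after FKBP5, ZBTB16 and some other members had been seen, so its count is a description. NR3C1, the receptor gene, stood at 67.9, 71.2 and 70.2 CPM in CA1 and 65.7, 78.7 and 84.6 in NeoT and was not called (adjusted p = 0.27), with overlap between the lines.

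The 12 largest rises by fitted fold change, among protein-coding genes with at least 10 CPM in the higher line, were all genes at 0 counts in NeoT. Their printed folds are bounds, so they cannot be ranked against genes with some counts there, such as KRT15 (5683-fold), KRT6B (2709-fold) and ESRP1 (1896-fold). CEACAM5, the carcinoembryonic antigen (chromosome 19, 41708626 to 41730519), stood at 237, 221 and 222 CPM in CA1 (at least 5019-fold higher), followed by KLK5 above and CEACAM6, a related adhesion gene (158, 155 and 159 CPM, at least 3496-fold). LOXL4, a lysyl oxidase, stood at 149, 161 and 162 CPM (at least 3513-fold). Beside AP1M2 and RAB25 above came the membrane protease gene TMPRSS4 (at least 2552-fold), PLEKHB1 (at least 1826-fold) and GABRP, a GABA receptor subunit of basal-like breast cells (at least 1564-fold). MYH14, a non-muscle myosin (at least 1423-fold), SCEL, of the cornified envelope (at least 1420.1-fold), and the adhesion gene MPZL2 (at least 1374-fold) completed the 12.

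The 12 largest falls by fitted fold change were led by DCN. DCN (decorin, a small proteoglycan that binds collagen; chromosome 12, 91140484 to 91182817) had 0 counts in CA1 and 595, 575 and 629.7 CPM in NeoT, at least 13686-fold lower. ALOX15B, a lipoxygenase, followed at 207, 212 and 183 CPM in NeoT (at least 4639.9-fold lower), then GGT5, a glutamyl transferase (at least 2737-fold), MYADM (at least 2058-fold) and the alcohol dehydrogenase ADH1B (at least 1497-fold). All 5 were at 0 in CA1, as were VSTM2L (at least 1265-fold), the transcription factor ATOH8 (at least 1172-fold) and LSP1 (at least 802-fold). SCNN1B, a subunit of the epithelial sodium channel, stood at 0, 0.0407 and 0.0395 CPM in CA1 and 207, 194 and 205 in NeoT, a NeoT to CA1 CPM ratio of 6929 (95% counting interval 1918 to 57224). ZBTB16, MT1E and WNT5A above complete the 12, and those at 0 in CA1 likewise cannot be ranked against MAOA (1808-fold lower). At 0 counts in 1 line and at least 10 CPM in the other were 48 genes detected in CA1 and 29 in NeoT, with bounds from 245.2-fold to 5019-fold and from 234-fold to 13686-fold. The 48 included AGR2, MUC16, SLC5A1, MACC1 and UCA1, and the 29 included the autotaxin gene ENPP2, the sulfotransferase SULT1E1, TH and TBX18, named here after their values were seen.

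Among genes that changed at least 4-fold without overlap, those with the most counts in each line were as follows. In CA1 they included SCD, KRT15, KRT8 and KRT18 above, ANXA1, TINAGL1 and FDFT1, and FTH1, which was lower than in NeoT. TINAGL1, a basement membrane glycoprotein, stood at 2042, 2298 and 2342 CPM in CA1 and 3.44, 2.02 and 3.55 in NeoT (749-fold higher) and ANXA1 at 2539 ± 73.8 CPM in CA1 and 386 ± 28.8 in NeoT (6.58-fold). In NeoT they were FN1, FTH1, TGFBI, FTL, MT2A and VIM above, with NAMPT, SHC1, SERPINE2 and the rRNA row RNA18S5. NAMPT, which makes NAD, stood at 227, 229.9 and 227 CPM in CA1 and 2379, 2514 and 2801 in NeoT (11.2-fold lower in CA1), and SHC1, an adaptor between receptors and RAS, at 303 ± 18.4 CPM in CA1 and 2103 ± 241 in NeoT (6.95-fold). SERPINE2 stood at 368 ± 15.96 CPM in CA1 and 1818 ± 52.4 in NeoT (4.94-fold).

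Most markers of other cell types had too few counts to be tested. Of 10 stromal fibroblast markers, 3 were tested and all 3 were lower in CA1 (5 without any 1 CA1 replicate, 6 in the fit to 12 libraries, 7 with no filter on low counts), and their summed level ran from 11.97 to 13.5 CPM in CA1 and from 596 to 657 in NeoT. In NeoT nearly all of that was DCN: COL1A1 stood at 7.73 ± 0.336, LUM at 0.251 ± 0.263 and COL1A2 at 0.421 ± 0.329 CPM, and THY1 had no count. Leukocyte markers summed to 97.9 to 102 CPM in CA1 and 192 to 209 in NeoT, with 2 of 4 tested higher (1 with a filter at 1 CPM) and 2 lower. PTPRC, which defines leukocytes, had no count in either line, and CD68, a lysosomal protein also made by other cells, was 1.92-fold lower. Of 7 endothelial markers only PECAM1 was tested (10.9-fold higher, at 22.6 ± 0.778 CPM in CA1), with CDH5 at 8 counts over CA1 and 0 over NeoT. Of 8 neural and glial markers 2 were tested, L1CAM (1.72-fold lower) and NCAM1, which was not called.

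Some chromosome regions differed as a whole. Positions were known for 13025 tested genes, and medians were taken over 233 windows of 10 Mb with at least 20 tested genes each. They ran from -1.19 to 0.85 on the log2 scale. Of these, 9 windows stood at -0.5 or lower and 11 at 0.5 or higher. The lowest was on chromosome 20 (40000001 to 50000000), where 47 of 62 genes were called lower in CA1 (75.8%, against 33.1% overall) and 4 higher. The windows from 30000001 and from 60000001 on the same chromosome had medians of -0.71 and -0.89. On chromosome 19, the 3 windows from 30000001 to 60000000 had medians of -0.68, -0.67 and -0.72, with 60 to 65.3% of their genes called lower. They hold FTL and the 4 ribosomal protein genes that were at least 2-fold lower. The highest median, 0.85, was at the tip of the short arm of chromosome 9 (1 to 10000000), where 23 of 29 genes were called higher. On the long arm of chromosome 3, 8 windows between 100000001 and 200000000 had medians of 0.50 to 0.66, and the one from 140000001 stood at 0.26.

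**Figure D4:**
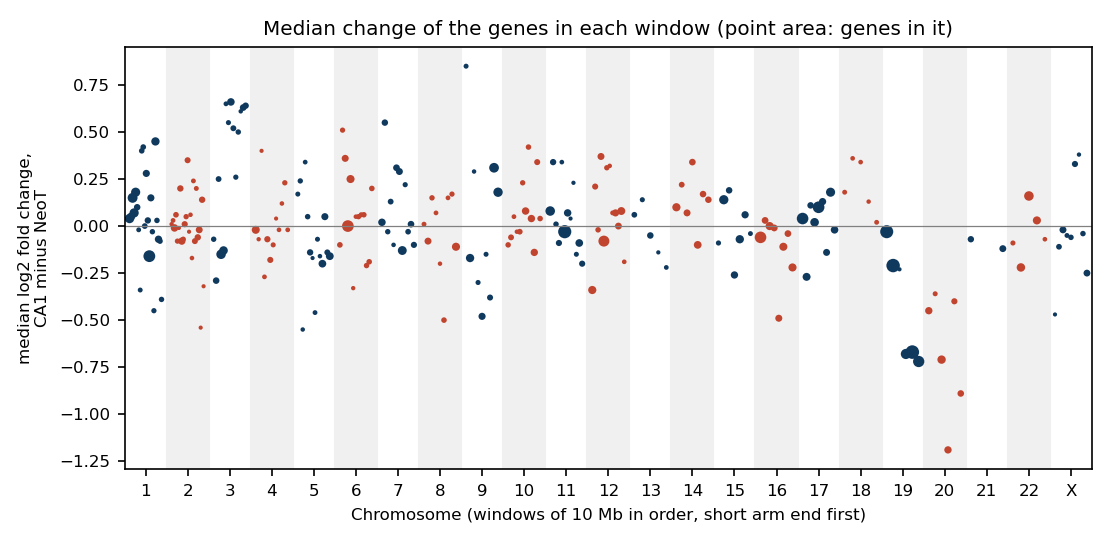
Median log2 fold change (CA1 minus NeoT, y axis) of the genes in each of 233 windows of 10 Mb, in order along each chromosome (x axis), with point area in proportion to the number of genes and colour alternating by chromosome. The later windows of chromosomes 19 and 20 lie below the rest, and the long arm of chromosome 3 and the start of chromosome 9 above it.

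The parent line shows on which side a region stood apart. In the lowest window of chromosome 20 the median of log2 levels was 0.52 for NeoT minus A10 and -0.50 for CA1 minus A10. These differences share the A10 libraries and are given side by side only. On chromosome 19 from 50000001 the values were 0.68 for NeoT and 0.01 for CA1. At the tip of chromosome 9 they were 0.29 and 0.87, and on chromosome 3 from 190000001 they were 0.00 and 0.64. DNA copy number was not analysed here.

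Levels in the other lines place single genes in the same way, on a scale set over all 12 libraries. T1 replicate 1 stood apart there in having 7.76% of its counts in the cytoplasmic rRNA rows. CDH1 stood at 313 ± 16.3 CPM in A10 and 645 ± 22.96 in T1 (MCFT1, atypical hyperplasia), against 0.691 ± 0.452 in NeoT and 362 ± 12.3 in CA1. NeoT was the line apart for CDH1. ESRP1 (54.3 ± 3.82 CPM) and AP1M2 (34.6 ± 3.89) were likewise well present in A10. GRHL2 was not: it had 0 counts in both A10 and NeoT, with T1 at 59.0 ± 2.59 and CA1 at 39.3 ± 3.25. OVOL1 (1.72 ± 0.618), RAB25 (3.98 ± 0.0853) and CGN (3.14 ± 0.286) were low in A10. FN1 stood at 15978 ± 1763 in NeoT and 1157 ± 104 in A10, and at 65.1 ± 3.47 and 33.98 ± 3.29 in T1 and CA1, so that NeoT lay above the parent and the other derived lines below it. ZEB1 stood at 4.07 ± 0.464, 34.5 ± 3.49, 0.453 ± 0.254 and 0.394 ± 0.192 in A10, NeoT, T1 and CA1, and DCN at 69.1 ± 3.25, 632 ± 33.96, 0.447 ± 0.265 and 0 in turn. For other genes CA1 was the line apart. SCD stood at 12274 ± 152 CPM in CA1, against 1267 ± 34.9, 1135 ± 53.5 and 2262 ± 14.3 in A10, NeoT and T1. In the order of A10, NeoT, T1 and CA1, HMGCS1 stood at 224 ± 7.56, 66.5 ± 6.41, 84.7 ± 3.91 and 1167 ± 18.7, and the actin cross-linker gene FLNA, named after its values were seen, at 1338 ± 145, 1849 ± 58.3, 1174 ± 43.3 and 47.1 ± 2.75. CEACAM5 and LOXL4 had 0 counts in A10 and NeoT, and LOXL4 also in T1. FKBP5 was highest in NeoT (1808 ± 92.1) and lowest in CA1 (12 ± 1.41), with A10 at 624 ± 22.1 and T1 at 408 ± 5.62. In the order of A10, NeoT, T1 and CA1, TSC22D3 stood at 76.3 ± 2.98, 811 ± 52.9, 35.7 ± 1.4 and 44.6 ± 2.45. KLF9 stood at 19.3 ± 1.02, 311 ± 17.8, 25.5 ± 3.43 and 5.84 ± 1.13, and DUSP1 at 94.7 ± 2.63, 725 ± 2.99, 57.8 ± 3.4 and 18.4 ± 0.56. For these genes NeoT lay far above the parent, and CA1 lay below it. PLK1 stood at 127 ± 4.39 in A10 and 46.2 ± 1.79 in T1, above NeoT (13.7 ± 0.468), with CA1 at 61.7 ± 1.27, so that CA1 lay above NeoT and below the parent. TP63 stood at 107 ± 2.22 in A10 and 27.1 ± 2.23 in CA1, and KRT5 at 3347 ± 152 and 271 ± 16.98, so that CA1 had less of these basal genes than A10.

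**Figure D5:**
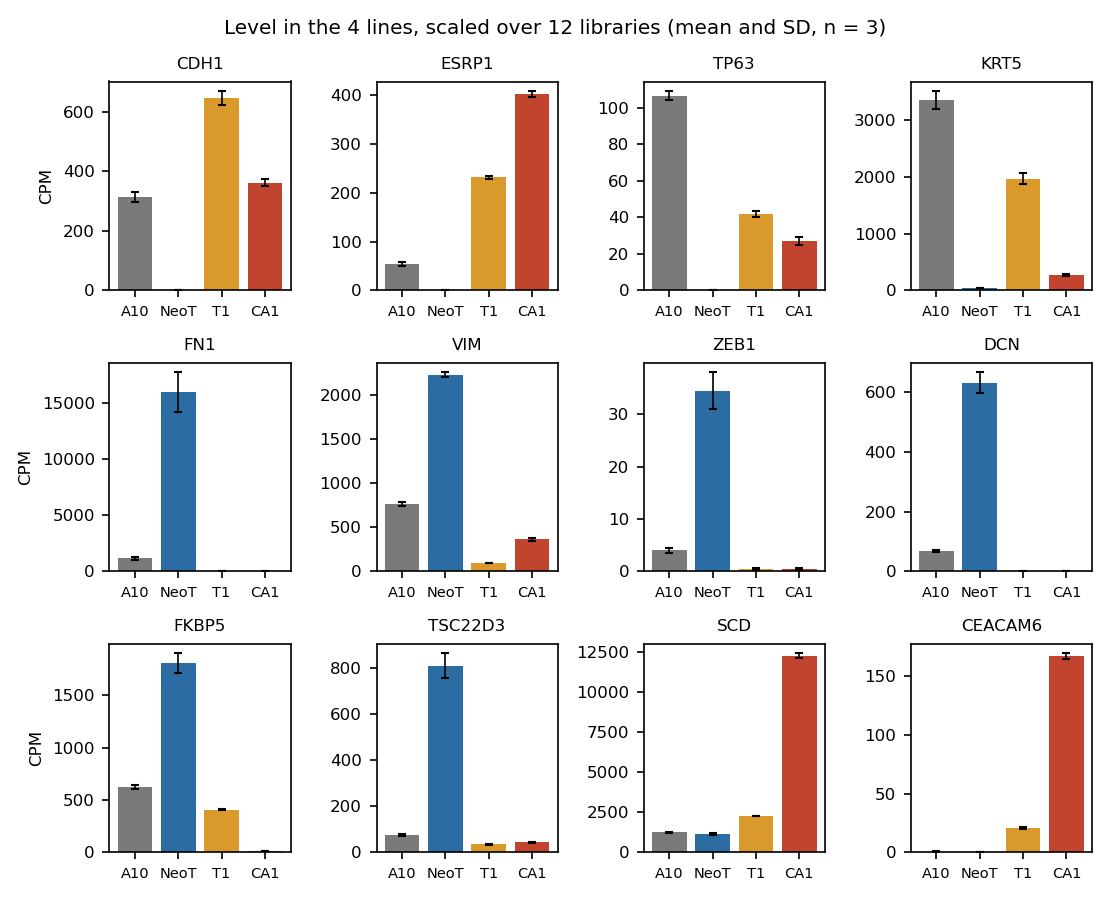
Level in CPM of 12 genes in A10 (grey), NeoT (blue), T1 (yellow) and CA1 (red), scaled over all 12 libraries; bars give the mean and error bars the SD of 3 libraries. NeoT stands apart for CDH1, FN1, ZEB1, DCN and TSC22D3, and CA1 for SCD and CEACAM6.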

How the data were processed

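RNA from cultured cells was prepared by the authors' combined DNA, RNA and protein workflow and treated with DNase before library preparation with the NEBNext Ultra RNA kit, per the labels' protocols. The deposited table held estimated counts per gene (salmon, by the table's name), 10.1% of them not whole, for 12 libraries. The submitters' processing notes name GRCh38 and limma, and versions, annotation and strand setting are not given in the sources used here. The estimated counts were rounded to whole numbers, and the 6 CA1 and NeoT libraries were fitted with edgeR 4.0.16 in R 4.3.3 (filterByExpr, TMM, robust quasi-likelihood test, two-sided, Benjamini-Hochberg adjustment over 13500 genes). A gene was called at an adjusted p under 0.05. SEs were derived from the fold change and its F value. Of 29744 gene rows, 11615 had no count in these libraries, and 114 shared a name with another row. By symbol, 23144 rows matched the GRCh38 annotation, a further 1788 by synonym, and 4812 were not matched. The fits were tested on simulated data first, in which false calls took a larger share of the calls than the nominal rate, so calls near the threshold are the least certain.

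The lines were taken from the sample titles, and the members and the 38 gene lists were chosen with earlier results of these data known. The lists of glucocorticoid receptor targets and metallothioneins were added after the largest falls had been seen. Genes named by rule were HRAS, a panel of lineage genes, the 12 largest rises and 12 largest falls among called protein-coding genes without overlap that reached 10 CPM in 1 of the lines, the 10 with most counts in each line among those changed at least 4-fold, and, per list, members at 0 in 1 line and the 5 members of lowest adjusted p. Other list members were named after their values were seen, and some genes that the rule names are not reported here. Folds against 1 to 3 counts are given as CPM ratios with exact 95% counting intervals. Alternatives were other scalings (RLE, upper quartile), filters, DESeq2 1.42.0, limma-voom (limma 3.58.1), all 12 libraries, a test against 2-fold change, a replicate block and leaving out each replicate.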

Additional observations from a re-analysis of the deposited data

How the results depend on the processing

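All 3739 values of the 234 genes named by rule kept their direction and call over the alternatives that could be fitted, and 21 of 1280 list counts moved by more than 1.5 times. The test against a 2-fold change was left out of both, since it asks for a larger difference and genes with smaller changes would lose their call. The number of called genes stood at 8934 with DESeq2, 8907 with RLE scaling, 8982 with upper-quartile scaling, 9052 with limma-voom, 9190 with no filter and 9575 with all 12 libraries. Tested against a 2-fold change, 3131 genes were called, 1733 higher and 1398 lower. Leaving out 1 replicate at a time gave 8025 (without CA1 replicate 3) to 9944 (without NeoT replicate 3) called genes, 4022 to 5054 higher and 3992 to 4890 lower, 4197 to 4449 changed at least 2-fold, and 0.27 to 0.40 for the log2 fold change of HRAS. At 1 CPM in place of 10, 154 genes were detected in CA1 only and 114 in NeoT only. With 5-Mb windows, 16 were lower and 9 higher by 0.5. The replicate block called 8509 genes; same-numbered libraries of the 2 lines shared only a number (deviation r of -0.116, 0.0891 and 0.00774), and CA1 replicate 1 correlated best with NeoT replicate 3. Upper-quartile scaling moved the median of all genes to -0.075 and the share of rises among calls from 49.9% to 46%. Genes under about 10 counts per library were mostly not tested, so differences there were not detectable at this depth.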
